A study of Arabidopsis thaliana with 16 samples.

Results

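Of the Arabidopsis genes with a symbol of BGLU and a number, the naming series of one family of beta-glucosidases, 20 were measured by a probe set paired with that gene alone. Among them 8 were chosen by their measured level, a mean intensity of at least 100 in 1 or more of the 4 sample groups, and are described here as the beta-glucosidase genes with signal in roots. They are BGLU15 (AT2G44450), BGLU16 (AT3G60130), BGLU25 (AT3G03640), BGLU40 (AT1G26560), BGLU42 (AT5G36890), BGLU44 (AT3G18080), BGLU45 (AT1G61810) and BGLU46 (AT1G61820). They stand among 13350 genes with such a probe set and 22746 probe sets in all. The groups were HRE1-RNAi roots in hypoxia, HRE1-RNAi roots in normoxia, wild type roots in hypoxia and wild type roots in normoxia, each with 4 one-colour Affymetrix arrays called biological replicates in the labels. All groups came from seedling roots of 14-d-old plants of the ecotype Columbia. Hypoxia was 6 h at 3% oxygen in the dark. Normoxia is also recorded as 6 h, and whether it was in the dark is not stated here. The oxygen level of normoxia is not given in the sources used here. In the knock-down line RNA interference targets HRE1 (AtERF73), an ethylene response factor gene. The titles name this line HRE1-RNAi20, whereas the descriptions of 7 of its 8 samples name RNAi21 to RNAi24, and this conflict was not resolved. The promoter of the RNAi construct and any pooling of seedlings are not given in the sources used here.

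Beta-glucosidases of this family (glycoside hydrolase family 1) cut glucose from small molecules that plants store as inactive glucosides. The sugar keeps a defence compound, a hormone or a lignin precursor soluble and apart from its site of action, and the enzyme releases it. In Arabidopsis roots the best known member is PYK10 (also BGLU23), the main protein of ER bodies, which are spindle-shaped compartments of the endoplasmic reticulum that hold beta-glucosidases for use on tissue damage. Other members act on flavonol glycosides (BGLU15), on scopolin, the storage form of the root coumarin scopoletin (BGLU42), on beta-mannosides (BGLU44) and on monolignol glucosides, the storage form of lignin building blocks (BGLU45 and BGLU46).

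Values are MAS5 signals on a linear scale, called intensities below, scaled by the authors so that the trimmed mean of each array was close to 500. An intensity of 100 is a round limit and not a detection call. The rule used the group means, so the levels are a description. BGLU15, BGLU16, BGLU25, BGLU42, BGLU44 and BGLU46 were above 100 in all 4 groups. BGLU40 met the rule only through wild type normoxia, at a mean of 104.6, and BGLU45 only through HRE1-RNAi hypoxia, at a mean of 138.8. These were the members just inside the limit, and BGLU24 (highest group mean 87.4) and BGLU41 (41.9) lay just outside. The other 10 genes below the limit had highest group means between 6.98 and 41.4, and their values lie close to the pseudocount of 16 added before taking logarithms, so that their changes are understated. Levels of different probe sets are not set against each other here, because probe sets differ in how brightly they bind.

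The median intensity of an array lay between 166 and 191 in HRE1-RNAi hypoxia, between 180 and 206.5 in HRE1-RNAi normoxia, between 169 and 178 in wild type hypoxia and between 180 and 194 in wild type normoxia. Both HRE1-RNAi arrays numbered 4 correlated least with the rest of their own groups, with a mean r of 0.961 in hypoxia and 0.962 in normoxia over all probe sets. The other 14 arrays lay between 0.964 and 0.973. The 3' minus 5' log2 signal of control transcripts was averaged over 6 probe set pairs. It was 1.35 and 1.32 on the HRE1-RNAi arrays numbered 4 of hypoxia and normoxia, and 0.93 to 1.20 on the other 14. Its part in the values of these genes was not tested. For several genes below, the hypoxia change is also given without the HRE1-RNAi arrays numbered 4. HRE1 was not paired with a probe set in the tables used here, so the level of the targeted gene was not analysed. Of 14 root marker genes 3 were measured (EXPA7, EXPA18 and XTH26, genes of root hair wall loosening), and their summed intensity was 363 to 993 in HRE1-RNAi hypoxia, 1567 to 1866 in HRE1-RNAi normoxia, 351 to 575 in wild type hypoxia and 1148 to 1687 in wild type normoxia. Of 10 shoot marker genes 2 were measured (LHCB4.1 and RCA), with sums of 984 to 1429, 1728 to 1911, 1021 to 1104 and 1718 to 1990 in the groups in the same order. No measured marker of either list was at 0 as a group mean. The 3 root markers and LHCB4.1 fell in hypoxia in both lines, in the same direction as BGLU16, BGLU44, BGLU15 and BGLU42 below. RCA did not pass the test described next in either line. The part of the markers in the changes of the beta-glucosidase genes was not tested. Fewer cells of a type and less RNA per cell cannot be told apart in bulk roots.

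The first question was how the beta-glucosidase transcripts changed after 6 h of low oxygen. BGLU16, BGLU44, BGLU15 and BGLU42 were lower in hypoxia in both lines, between 1.59-fold and 3.05-fold lower. BGLU46 was 2.92-fold higher in hypoxia in HRE1-RNAi roots. BGLU25, BGLU40 and BGLU45 did not pass the test in either line. Changes are log2 differences between group means of log2(intensity + 16), and a gene was called at a Benjamini-Hochberg adjusted p below 0.05 over all probe sets in limma. Over the 20 BGLU genes, 1 was called higher and 5 lower in HRE1-RNAi roots, and 0 were called higher and 4 lower in wild type roots. The call rate over all probe sets was 18.2% in HRE1-RNAi roots, with 7.51% higher and 10.7% lower. In wild type roots it was 17.8%, with 7.2% higher and 10.6% lower. The median log2 change of the 20 genes was 0.01 in HRE1-RNAi roots and -0.34 in wild type roots, against -0.06 over all probe sets in either line. These 20 include the dim genes below the intensity limit, most of them with understated changes. For the 8 genes with signal in roots the median was -0.47 in HRE1-RNAi roots and -0.64 in wild type roots. The pair of hypoxia contrasts have no arrays in common. The fit takes a single spread per probe set from all 16 arrays, so their p-values and calls are not independent.

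**Figure D1:**
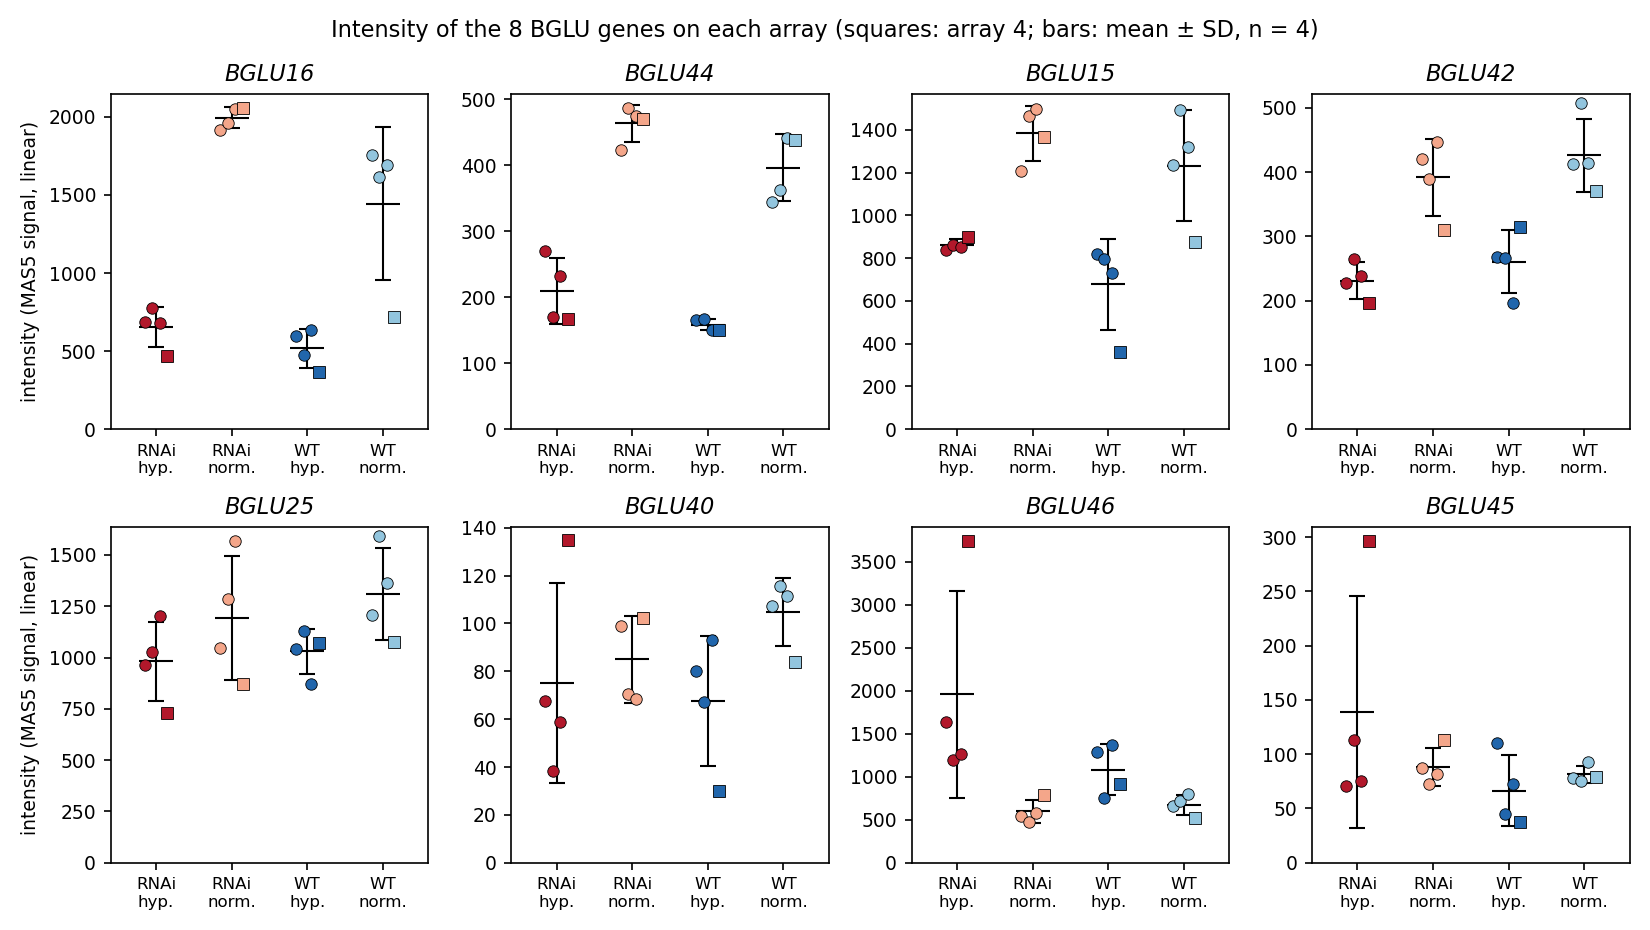
Intensity (MAS5 signal, linear axis from 0) of the 8 beta-glucosidase genes on each of the 16 arrays. Points are arrays, squares are the arrays numbered 4, and bars give the mean ± SD of 4 arrays for HRE1-RNAi hypoxia, HRE1-RNAi normoxia, wild type hypoxia and wild type normoxia. BGLU16, BGLU44, BGLU15 and BGLU42 lie lower in hypoxia without overlap in both lines, and the array numbered 4 of HRE1-RNAi hypoxia stands far above its group for BGLU46 (3737), BGLU45 (296) and BGLU40 (135).

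BGLU16 fell in both lines. Its intensity was 688, 774, 683 and 470.5 on the HRE1-RNAi hypoxia arrays, against 1916, 1959, 2052 and 2054 on the HRE1-RNAi normoxia arrays. In wild type it was 597, 474, 636 and 365 in hypoxia, against 1758, 1612, 1693 and 716 in normoxia. Every hypoxia array lay below every normoxia array of its line, and the wild type normoxia array at 716 stood well below the other 3 of that group. The log2 change was -1.61 ± 0.23 in HRE1-RNAi (SE; limma adjusted p = 1.34e-05) and -1.40 ± 0.23 in wild type (adjusted p = 8.34e-05). Without the low wild type normoxia array the wild type change was -1.70. Groups that did not overlap in this direction made up 11.5% of all probe sets in HRE1-RNAi and 13% in wild type.

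BGLU44, which acts on beta-mannosides, had 269.5, 170.0, 233 and 166.5 in HRE1-RNAi hypoxia, against 423, 486.5, 475 and 470.1 in HRE1-RNAi normoxia. The wild type hypoxia arrays lay within a narrow range at 165, 167, 151 and 151, against 344, 362, 441 and 438.5 in wild type normoxia. The groups did not overlap in either line. This was a log2 change of -1.11 ± 0.16 in HRE1-RNAi (adjusted p = 1.04e-05) and -1.23 ± 0.16 in wild type (adjusted p = 2.74e-06), that is 2.16-fold lower and 2.35-fold lower.

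BGLU15, the flavonol glycoside hydrolase, had 837, 863, 853 and 897.5 in HRE1-RNAi hypoxia, against 1207, 1462, 1496 and 1365 in HRE1-RNAi normoxia. It had 821, 794, 732 and 363 in wild type hypoxia, against 1237, 1492, 1319 and 875 in wild type normoxia. The groups did not overlap in either line, although the highest wild type hypoxia array (821) came close to the lowest wild type normoxia array (875). BGLU15 thus changed by -0.67 ± 0.20 log2 units in HRE1-RNAi (adjusted p = 0.0199) and -0.89 ± 0.20 in wild type (adjusted p = 0.00224). The call in HRE1-RNAi was lost without its hypoxia array 1 (-0.65, adjusted p = 0.0506), without its normoxia array 2 (-0.64, 0.0534), after median centring of the arrays (-0.56, 0.0524) and with neither trend nor robust moderation of the variances (-0.67, also 0.0524). The wild type change was -0.62 without the array at 363 (adjusted p = 0.00586).

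BGLU42, a scopolin hydrolase, had 227, 265, 238 and 196 in HRE1-RNAi hypoxia, against 421, 389.9, 447 and 309.9 in HRE1-RNAi normoxia. In wild type it had 267, 266, 196 and 314 in hypoxia, against 412, 507, 414 and 371 in normoxia. Its log2 change was -0.72 ± 0.16 in HRE1-RNAi (adjusted p = 0.00228) and -0.68 ± 0.16 in wild type (adjusted p = 0.00365), with no overlap between hypoxia and normoxia in either line.

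BGLU46, which acts on monolignol glucosides, went the other way. It had 1635, 1190.4, 1259 and 3737 in HRE1-RNAi hypoxia, against 538, 475, 582 and 790.2 in HRE1-RNAi normoxia. It had 1288, 755, 1372 and 917 in wild type hypoxia, against 662, 713, 800.5 and 516 in wild type normoxia. In HRE1-RNAi every hypoxia array lay above every normoxia array, a pattern that 7.93% of all probe sets showed, and the hypoxia array numbered 4 was more than double the next. In wild type the groups overlapped, because hypoxia array 2 (755) lay below normoxia array 3 (800.5). The log2 change was 1.55 ± 0.28 in HRE1-RNAi (adjusted p = 0.000434) and 0.65 ± 0.28 in wild type (adjusted p = 0.134). Without both HRE1-RNAi arrays numbered 4 the HRE1-RNAi change was 1.32 (adjusted p = 1.82e-05). With those arrays left out the wild type change stayed at 0.65, its SE was 0.17 in place of 0.28, and it was then called (adjusted p = 0.0064). Median centring of the arrays, weighting the arrays or fitting only the wild type groups also brought the wild type change under the limit, with adjusted p of 0.0423, 0.0203 and 0.0176. So did leaving out the HRE1-RNAi hypoxia array numbered 4 alone (0.0163) or all 4 arrays numbered 4 (0.0256).

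BGLU45, whose gene lies beside BGLU46 in the genome and whose enzyme acts on the same class of glucosides, showed no called change. Its intensity was 70.7, 113, 75.1 and 296 in HRE1-RNAi hypoxia, against 87.5, 72.3, 81.6 and 113 in HRE1-RNAi normoxia. In wild type it was 109.9, 45, 72.9 and 37.5 in hypoxia, against 77.8, 75.7, 93.2 and 78.6 in normoxia. The groups overlapped in both lines, and the HRE1-RNAi hypoxia mean was 86.3, below the limit of 100, when its array numbered 4 was left out. For BGLU45 the log2 change was 0.37 ± 0.33 in HRE1-RNAi (adjusted p = 0.533), turning to -0.041 without that array and 0.064 without both arrays numbered 4, and -0.32 ± 0.33 in wild type (adjusted p = 0.602).

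BGLU25, of the same subfamily as PYK10, had 966, 1028, 1199.8 and 730.1 in HRE1-RNAi hypoxia, against 1047, 1285, 1567 and 869 in HRE1-RNAi normoxia. It had 1040.5, 1131, 873 and 1073 in wild type hypoxia, against 1205.5, 1593, 1362 and 1077 in wild type normoxia. The groups overlapped in both lines. The log2 change was -0.26 ± 0.18 in HRE1-RNAi (adjusted p = 0.365, 95% interval -0.63 to 0.10) and -0.33 ± 0.18 in wild type (adjusted p = 0.225, interval -0.70 to 0.03). The HRE1-RNAi change was -0.13 without the hypoxia array numbered 4 and -0.40 without the normoxia one. Without all 4 arrays numbered 4 the wild type change was -0.44 and was called (adjusted p = 0.0465).

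BGLU40 was dim throughout. Its intensity was 67.6, 38.5, 58.8 and 135 in HRE1-RNAi hypoxia, against 98.9, 70.3, 68.5 and 102.3 in HRE1-RNAi normoxia. In wild type it was 80.0, 67.1, 93.0 and 29.8 in hypoxia, against 107.3, 115.7, 111.5 and 84.0 in normoxia. The wild type groups overlapped through the hypoxia array at 93.0 and the normoxia array at 84.0. For BGLU40 the log2 change was -0.24 ± 0.30 in HRE1-RNAi (adjusted p = 0.683) and -0.59 ± 0.30 in wild type (adjusted p = 0.194). The HRE1-RNAi change was -0.51 without the hypoxia array numbered 4, -0.15 without the normoxia one and -0.43 without both. The wild type change was -0.33 without the hypoxia array at 29.8.

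**Figure D2:**
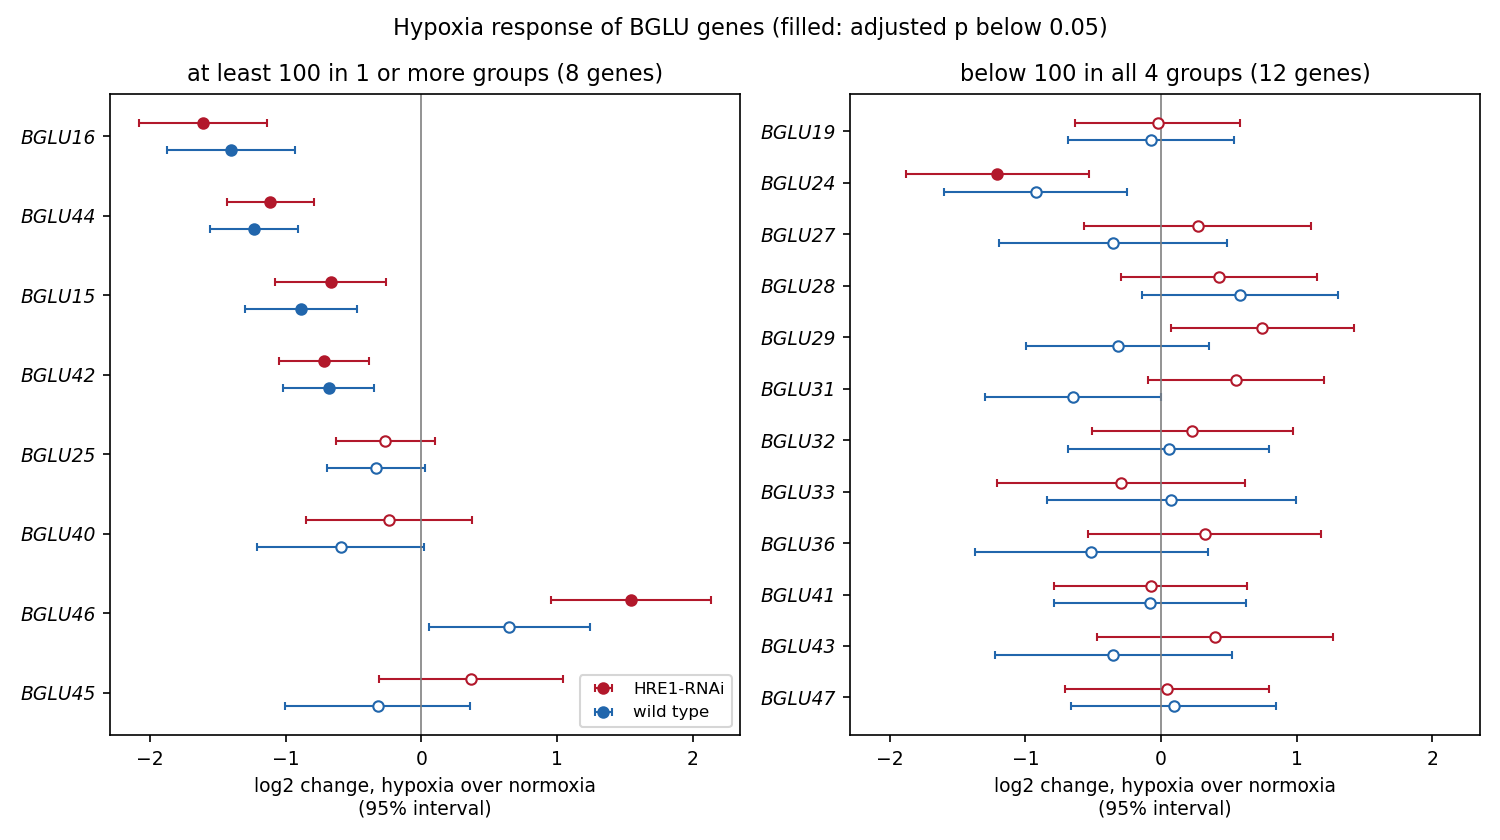
Log2 change, hypoxia over normoxia, with its 95% interval, for the 8 beta-glucosidase genes with signal in roots (left) and the 12 below the limit of 100 (right). Red is HRE1-RNAi, blue is wild type, and filled points have an adjusted p below 0.05. The 4 genes at the top of the left panel are called lower in both lines, BGLU46 is called higher in HRE1-RNAi, and BGLU24 alone is filled on the right.

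Among the 12 genes below the limit, BGLU24, of the same subfamily as PYK10 and BGLU25, was called lower in HRE1-RNAi roots. It had 34.8, 16.9, 30.3 and 14.2 in HRE1-RNAi hypoxia, against 41.0, 101.6, 87.7 and 79.6 in HRE1-RNAi normoxia, with no overlap. In wild type it had 53.6, 14.8, 63.2 and 31.7 in hypoxia, against 97.1, 116.8, 59.0 and 76.8 in normoxia, with overlap. The log2 change was -1.21 ± 0.32 in HRE1-RNAi (adjusted p = 0.0102) and -0.92 ± 0.32 in wild type (adjusted p = 0.0534). The HRE1-RNAi call was lost without both its arrays numbered 4 (-1.06, adjusted p = 0.0535) and without all 4 arrays of that number (-1.06, 0.0633). The wild type change was called in 8 of 26 alternatives, among them without both HRE1-RNAi arrays numbered 4 (adjusted p = 0.0451), with a pseudocount of 64 (0.0401) and with neither trend nor robust moderation (0.0490).

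Several members lie beside another BGLU gene in the genome annotation (TAIR10.1, used here only for the order of genes). BGLU15 neighbours BGLU28, BGLU16 neighbours BGLU27 and DIN2, and BGLU44 neighbours BGLU43. DIN2, a family gene that the symbol rule left out, was not examined. None of BGLU28, BGLU27 and BGLU43 reached the limit or was called in hypoxia. BGLU28 had a log2 change of 0.43 in HRE1-RNAi and 0.58 in wild type, with all group means between 17.7 and 38.7. BGLU27 had 0.27 and -0.35, and BGLU43 had 0.40 and -0.35, in the same order of lines.

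The second question was whether the knock-down line differed from wild type. No BGLU gene was called between the lines in hypoxia or in normoxia, nor for the difference of the hypoxia responses, under limma. Over all probe sets the calls came to 0.022% in hypoxia, 0.0264% in normoxia and 0.0176% for the difference of responses. At an unadjusted p below 0.05 there were 4 of the 20 BGLU genes in hypoxia, where 4.55% of all probe sets lay below that limit. There were 2 in normoxia, beside 4.34% of all probe sets, and 3 for the difference of responses, beside 3.39%. Of the 8 genes with signal in roots, 3 were among these in hypoxia, 1 in normoxia and 1 for the difference of responses. The rest were dim genes below the intensity limit, BGLU31 (highest group mean 23.975) and BGLU29 (22.5). BGLU31 was the one in hypoxia, BGLU29 the one in normoxia, and both were among those for the difference of responses. BGLU46 averaged 1955 ± 1204 in HRE1-RNAi hypoxia and 1083 ± 295 in wild type hypoxia (SD, n = 4 each), and these groups overlapped. The log2 difference was 0.72 ± 0.28 (limma adjusted p = 1.00, 95% interval 0.13 to 1.31), and it was 0.35 without the HRE1-RNAi hypoxia array numbered 4. BGLU45 averaged 139 ± 107 in HRE1-RNAi hypoxia and 66.3 ± 32.8 in wild type hypoxia (SD, n = 4 each), a log2 difference of 0.78 ± 0.33 (limma adjusted p = 1.00) that was 0.37 without that array. Both genes thus had their largest value on the same array.

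BGLU44 averaged 209.7 ± 50.2 in HRE1-RNAi hypoxia and 158.5 ± 8.89 in wild type hypoxia (SD, n = 4 each), and the log2 difference was 0.35 ± 0.16 (limma adjusted p = 1.00), or 0.22 without the HRE1-RNAi hypoxia array numbered 1. In hypoxia the BGLU15 arrays of HRE1-RNAi all lay above those of wild type, at a log2 difference of 0.41 ± 0.20, a pattern that 1.26% of all probe sets showed. Without the wild type hypoxia array numbered 4 (363) that difference was 0.14. In normoxia the BGLU16 arrays of HRE1-RNAi all lay above those of wild type, which 1.08% of all probe sets showed. BGLU16 averaged 1995 ± 69.1 in HRE1-RNAi normoxia and 1445 ± 489.6 in wild type normoxia (SD, n = 4 each), and the log2 difference was 0.54 ± 0.23 (limma adjusted p = 1.00). It was 0.24 without the wild type normoxia array numbered 4 (716).

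**Figure D3:**
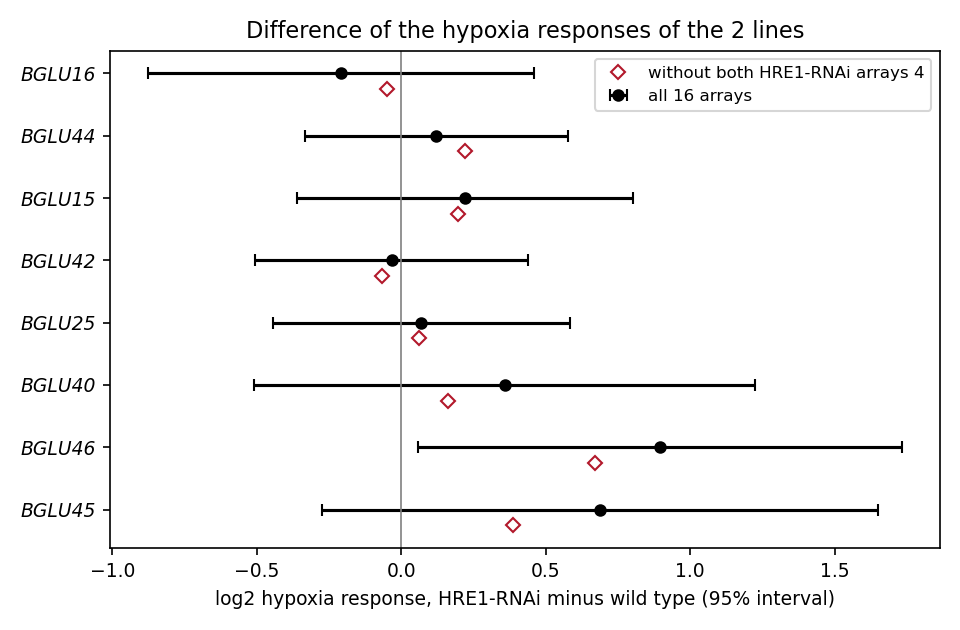
Difference of the hypoxia responses, HRE1-RNAi minus wild type, on the log2 scale for the 8 beta-glucosidase genes. Black points with 95% intervals use all 16 arrays, and open diamonds leave out both HRE1-RNAi arrays numbered 4. The interval of BGLU46 runs from 0.06 to 1.73 and the other 7 intervals include 0.

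The responses of the lines to hypoxia differed by 0.90 ± 0.40 for BGLU46, from 1.55 in HRE1-RNAi and 0.65 in wild type, with a 95% interval of 0.06 to 1.73. This did not pass the adjustment (limma adjusted p = 1.00), and the difference was 0.67 without both HRE1-RNAi arrays numbered 4 and 0.53 without the hypoxia one alone. For BGLU16 the difference was -0.21, with an interval of -0.88 to 0.46. For BGLU44 it was 0.12 (-0.34 to 0.58), for BGLU15 0.22 (-0.36 to 0.80) and for BGLU42 -0.03 (-0.51 to 0.44). The intervals of these 4 genes hold differences in both directions, so equal responses are not shown.

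The members did not vary alike within a group. The array numbered 4 was the lowest of its group in 16 of the 32 pairs of member and group and the highest in 9, where an array makes up 25% of each group. On the HRE1-RNAi hypoxia array numbered 4, BGLU46, BGLU45, BGLU40 and BGLU15 had their group's highest value, and BGLU16, BGLU25, BGLU42 and BGLU44 its lowest. PYK10 was lowest on the array numbered 4 in all 4 groups. What set these arrays apart was not tested.

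Other genes of the members' pathways, from lists of 15 genes for ER bodies, 20 for monolignols and 11 for scopolin and coumarins, were read from the same fit, with the probe sets paired with 1 gene. The ER body list holds the genes that build these compartments or bind their enzymes. Of its 6 measured genes, 0 were called higher and 5 lower in HRE1-RNAi, and again 0 higher and 5 lower in wild type. These counts were the same in every alternative run. Over all probe sets the share called lower was 10.7% in HRE1-RNAi and 10.6% in wild type. The list's median log2 change was -0.94 in both lines, against -0.06 over all probe sets. NAI1, the transcription factor that drives ER body formation, had 650, 689, 607 and 398 in HRE1-RNAi hypoxia, against 1489, 1456, 1444 and 1433 in HRE1-RNAi normoxia. It had 686, 556, 814 and 595 in wild type hypoxia, against 1738, 1736, 2035 and 1731 in wild type normoxia. NAI1 changed by -1.32 ± 0.15 log2 units in HRE1-RNAi (adjusted p = 7.71e-07) and -1.44 ± 0.15 in wild type (adjusted p = 2.3e-07), without overlap in either line.

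NAI2, an ER body protein needed for these compartments to form, averaged 5880 ± 1763 in HRE1-RNAi hypoxia and 11491 ± 2099.7 in HRE1-RNAi normoxia (SD, n = 4 each). It averaged 6203 ± 607 in wild type hypoxia and 12963 ± 1253 in wild type normoxia, and its log2 change was -1.01 in HRE1-RNAi and -1.06 in wild type. The jacalin-related lectins JAL33, JAL22 and JAL34, of the family that binds the PYK10 complex, fell by 0.99, 0.89 and 0.52 on the log2 scale in HRE1-RNAi, and by 1.09, 0.83 and 0.70 in wild type. JAL34 was named after its values were seen. JAL23, the list's other lectin with a probe set, was dim and not called, at -0.45 and 0.20.

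PYK10, the ER body beta-glucosidase that the symbol rule left out, was not called in either line. It had 22493, 22528, 24526 and 14815 in HRE1-RNAi hypoxia, against 24387, 22159.8, 26022 and 19226 in HRE1-RNAi normoxia. In wild type it had 22420.2, 21486, 23619 and 16747 in hypoxia, against 23926.5, 24044, 25821.5 and 20817 in normoxia. The groups overlapped, and the log2 change was -0.14 ± 0.14 in HRE1-RNAi (adjusted p = 0.602) and -0.17 ± 0.14 in wild type (adjusted p = 0.489). The HRE1-RNAi change was 0.023 without its hypoxia array numbered 4, -0.22 without its normoxia one and -0.059 without both. The highest intensity of any probe set was 41828. A probe set shared by BGLU21 and BGLU22, which cannot be told apart by it, averaged 9079 ± 2676 in HRE1-RNAi hypoxia and 13129.9 ± 3045 in HRE1-RNAi normoxia (SD, n = 4 each). It averaged 7841 ± 1417 in wild type hypoxia and 12709.8 ± 2183 in wild type normoxia. Its log2 change was -0.55 ± 0.20 in HRE1-RNAi (adjusted p = 0.0648) and -0.70 ± 0.20 in wild type (adjusted p = 0.018). The wild type call was lost after median centring (adjusted p = 0.0685), with neither trend nor robust moderation (0.0522), without wild type normoxia array 1 (0.0693) and without wild type hypoxia array 3 (0.0681). The HRE1-RNAi change was called in 7 of 27 alternatives. These included quantile normalization (0.0142), array weights (0.0340), leaving out both its arrays numbered 4 (0.0218) or all 4 of that number (0.0184), and leaving out its normoxia array 4 (0.00938) or hypoxia array 3 (0.0178) alone. Without its hypoxia array 4 the change was -0.35 (adjusted p = 0.203).

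**Figure D4:**
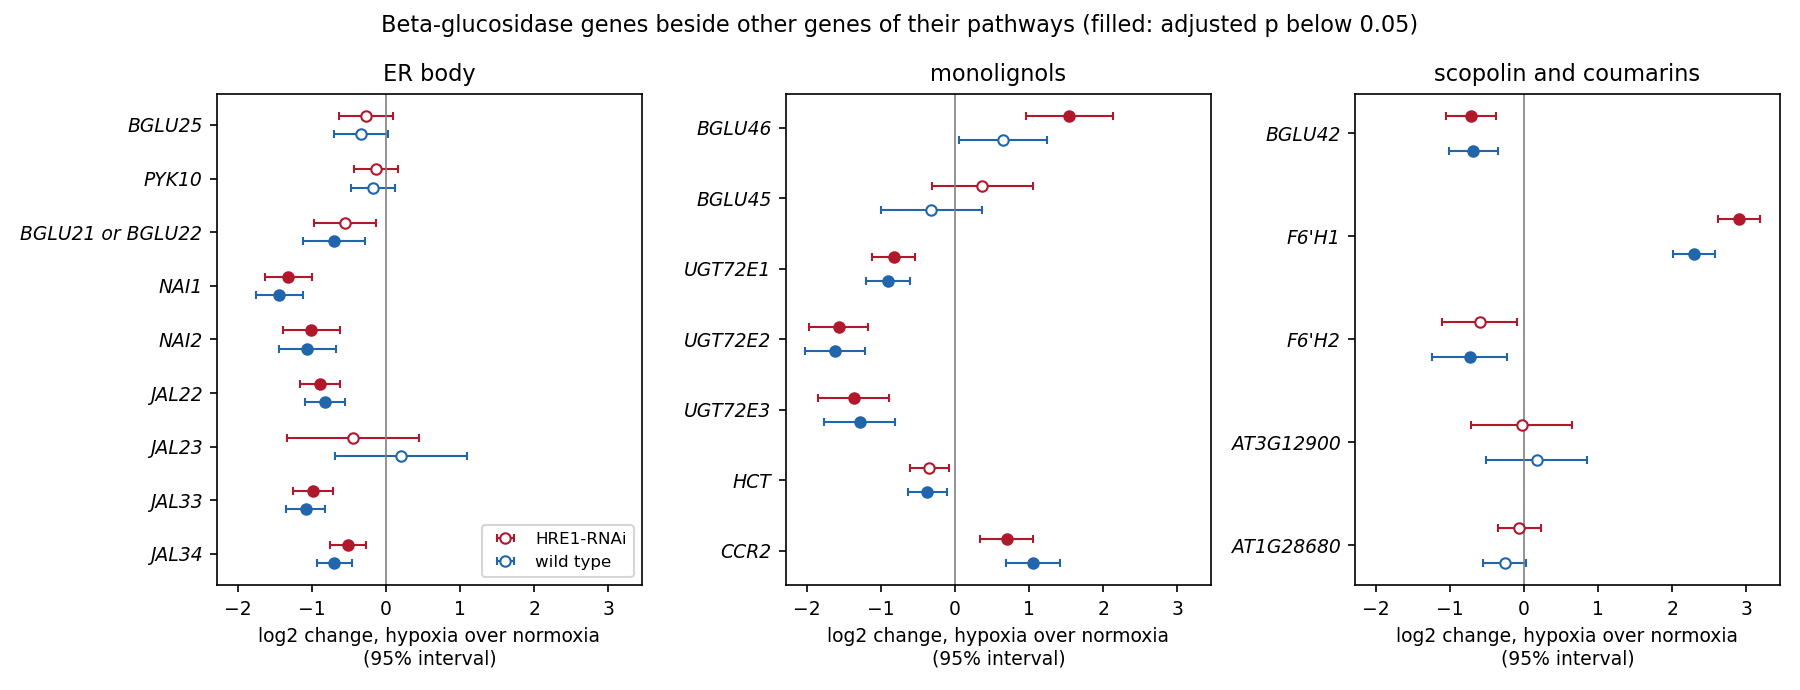
Log2 change, hypoxia over normoxia, with its 95% interval, for beta-glucosidase genes and the other measured genes of their lists. Red is HRE1-RNAi, blue is wild type, and filled points have an adjusted p below 0.05. NAI1, NAI2 and 3 of the 4 JAL genes are called lower beside unfilled points for PYK10 and BGLU25. The probe set of BGLU21 or BGLU22 is called lower in wild type only. UGT72E1 to UGT72E3 are called lower in both lines beside BGLU46, which is called higher in HRE1-RNAi only. F6'H1 is called higher beside a lower BGLU42.

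For monolignols, 5 of 20 listed genes were measured, of which 1 was called higher and 3 lower in HRE1-RNAi, and 1 higher and 4 lower in wild type. Over all probe sets 7.51% were called higher and 10.7% lower in HRE1-RNAi, and 7.2% higher and 10.6% lower in wild type. UGT72E2 and UGT72E3 encode glucosyltransferases that make monolignol glucosides, the substrates of BGLU45 and BGLU46. UGT72E1 is of the same family. UGT72E2 had 911.5, 1281, 1018 and 636 in HRE1-RNAi hypoxia, against 2808, 3175, 3516 and 1949.7 in HRE1-RNAi normoxia. It had 790.5, 1084, 748.5 and 926 in wild type hypoxia, against 3095, 2969, 2573 and 2355 in wild type normoxia. The groups did not overlap, and the log2 change was -1.57 ± 0.19 in HRE1-RNAi (adjusted p = 1.78e-06) and -1.62 ± 0.19 in wild type (adjusted p = 1.22e-06). UGT72E3 fell by 1.36 in HRE1-RNAi and by 1.29 in wild type, and UGT72E1 fell by 0.83 and by 0.90. CCR2, a cinnamoyl-CoA reductase gene, rose by 0.70 in HRE1-RNAi and by 1.05 in wild type. HCT, an acyltransferase gene of the lignin pathway named after its values were seen, had -0.35 in HRE1-RNAi (adjusted p = 0.0617) and -0.38 in wild type (adjusted p = 0.0424). Its call differed in 7 of 27 alternatives in HRE1-RNAi and in 13 of 27 in wild type.

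For scopolin and coumarins, 4 of 11 listed genes were measured, of which 1 was called higher in HRE1-RNAi, and 1 higher and 1 lower in wild type. The shares over all probe sets were 7.51% higher in HRE1-RNAi, and 7.2% higher and 10.6% lower in wild type. F6'H1 (AT3G13610), the hydroxylase that makes the scopoletin skeleton, averaged 8315 ± 1193 in HRE1-RNAi hypoxia and 1095 ± 169.6 in HRE1-RNAi normoxia (SD, n = 4 each). It averaged 7379 ± 739.9 in wild type hypoxia and 1499 ± 213 in wild type normoxia, and the log2 change was 2.91 ± 0.14 in HRE1-RNAi and 2.29 ± 0.14 in wild type. F6'H1 thus rose in both lines, whereas BGLU42 fell in both. BGLU42 is not taken here as the only beta-glucosidase that acts on scopolin. None of the other 3 measured genes of the list was called higher. F6'H2 (AT1G55290), a relative of F6'H1, had -0.60 in HRE1-RNAi (adjusted p = 0.0994) and -0.73 in wild type (adjusted p = 0.0403), and the wild type call was lost in 9 of 27 alternatives. COSY (AT1G28680), a coumarin synthase gene, had -0.06 in HRE1-RNAi and -0.26 in wild type, and S8H (AT3G12900), a scopoletin hydroxylase gene with group means between 9.08 and 16.7, had -0.03 and 0.17. Neither was called, and both are named here after their values were seen.

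In a list of 11 genes for abscisic acid metabolism, 4 were measured. In HRE1-RNAi 0 were called (0 at an unadjusted p below 0.05). In wild type 1 was called lower (2 at an unadjusted p below 0.05), beside 10.6% called lower over all probe sets. The called gene was AT3G21790, a dim probe set with a mean of 9.75 in wild type hypoxia and 56.2 in wild type normoxia, and its call was lost in 4 of 26 alternatives. The other below the unadjusted limit was UGT71C5, named after its values were seen. It averaged 888 in wild type hypoxia and 739 in wild type normoxia, a log2 change of 0.26 (limma adjusted p = 0.168). In a list of 21 glucosinolate genes the 1 measured, UGT74B1, was not called in either line, with 0.18 in HRE1-RNAi and -0.28 in wild type. Hypoxia check genes were 2 of 12, PDC2, a fermentation gene, and AT4G17260, and both were called higher in both lines, PDC2 by 2.01 in HRE1-RNAi and 2.19 in wild type. The share of all probe sets called higher was 7.51% in HRE1-RNAi and 7.2% in wild type.

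By a fixed rule the 3 genes with the most similar profile over the 16 arrays were found for 3 members, with Pearson's r of the log2 values as the measure. BGLU25 was taken as the member with the highest mean log2 value, and BGLU16 and BGLU44 as those with the largest hypoxia changes. For BGLU16 they were AT3G54000, AT1G78260 and AT2G16005, each with r = 0.94, and r was 0.81, 0.62 and 0.53 after removing the group means. For BGLU44 they were AT4G10280, AT1G22550 and AT2G26690, each with r = 0.96, and 0.61, 0.55 and 0.48 within groups. For BGLU25 they were AT3G57890, AT3G26782 and PRXR1, a peroxidase gene, each with r = 0.91, and 0.88, 0.87 and 0.88 within groups. Removing the group means lowered r more for the genes nearest BGLU16 and BGLU44 than for those nearest BGLU25. BGLU16 and BGLU44 were chosen for a large hypoxia change, so this difference was to be foreseen and is not a result. The points share arrays and scaling, and these values are descriptions.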

How the data were processed

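Biotin-labelled cRNA from seedling roots was hybridised to 16 Affymetrix arrays. The deposited values are an intensity per probe set, made by the authors with MAS5 per the submitters' processing notes, with no version given. They are linear and scaled to a common level per array. The number of arrays limits the precision. Genes came from the series' probe table. It gives 13513 probe sets a single gene (13436 matched in RefSeq by gene identifier), 503 more than 1 gene, and no gene to 8730. After removal of 64 controls, log2(intensity + 16) of 22746 probe sets was fitted with limma 3.58.1 in R 4.3.3, with a mean per group over 16 arrays (12 residual degrees of freedom), trend and robust moderation, two-sided tests and Benjamini-Hochberg adjustment within each of 5 contrasts. The fit was also run on simulated data with independent noise for each probe set. These hold no array that stands apart and no pairing, and their outcome is not used here. P-values measure the spread between arrays that the labels call biological replicates. The members and gene lists were chosen with earlier results of these data known. Named genes were all members, the 2 genes on either side of the limit, up to 4 called genes with the widest change per list, and the nearest profiles. Alternatives were pseudocounts, normalizations, filters, blocks, weights and left-out arrays. No sequences are shown.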

Additional observations from a re-analysis of the deposited data

Results flagged for a closer look

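BGLU15 on the wild type hypoxia array numbered 4 read 363.3, against 732.4 for the nearest of the other 3 arrays. BGLU16 on the wild type normoxia array numbered 4 read 715.8, against 1611.9 for the nearest. On the log2 scale the gap was 85.9% of the group's range for BGLU15 and 90.3% for BGLU16, both beyond Dixon's 95% critical value for 4 values. Of the 32 groups of 4 arrays examined for the 8 genes, 2 had an array beyond that value, where chance gives about 1.6. The next widest gap was 82.2% of the range, for BGLU45 on the highest wild type normoxia array. On the HRE1-RNAi hypoxia array numbered 4 it was 72.4% for BGLU46 and 68.9% for BGLU45.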

How the results depend on the processing

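The number of BGLU genes called stayed within 1.5 times of the reported one in all alternatives run, at 4 to 6 in wild type hypoxia against normoxia and at 4 to 6 in HRE1-RNAi. No BGLU gene was called between the lines or for the difference of responses in any of them. The replicate number as a block gave 4 and 6 calls. Same-numbered arrays of different groups had a mean correlation of 0.05 (-0.09 to 0.42), against -0.02 for differently numbered ones, and 6 of 24 pairs were above 0.1, against 4 of 72. Hypoxia and normoxia arrays of 1 line made up 5 of those 6, out of 8 such pairs (mean 0.13), and 11 of 16 arrays correlated best with their own number there, which is a hint of pairing within a line from the data. Not every pair was above 0.1 and the labels name no shared origin, so the block was not used for the reported values. Of the genes named by their calls it changed only the probe set of BGLU21 and BGLU22 in HRE1-RNAi, which it called (adjusted p = 0.0146). Among alternatives added after seeing the data, 7 genes met the intensity rule without both HRE1-RNAi arrays numbered 4. Signs turned only for changes that were not called, and the cause was not tested. Without all 4 arrays numbered 4 the difference of responses was 0.10 for BGLU16, -0.015 for BGLU40 and 0.086 for BGLU42, and it was 0.0041 for BGLU42 under quantile normalization. HRE1-RNAi against wild type in hypoxia was 0.0015 for BGLU25 and -0.18 for BGLU40 with array weights, 0.048 and -0.19 without both HRE1-RNAi arrays numbered 4, and 0.0701 and -0.45 without all 4, which gave 0.0099 for BGLU42. For BGLU45 HRE1-RNAi against wild type in normoxia was -0.012 without both HRE1-RNAi arrays numbered 4 and -0.025 without all 4. Leaving out each array in turn, the difference of responses ranged from -0.048 to 0.37 for BGLU15, -0.36 to 0.096 for BGLU16, -0.069 to 0.21 for BGLU25, -0.16 to 0.058 for BGLU42 and -0.00060 to 0.21 for BGLU44. HRE1-RNAi against wild type in hypoxia ranged from -0.19 to 0.048 for BGLU25 and from -0.19 to 0.30 for BGLU40. BGLU45 ranged from -0.041 to 0.57 for hypoxia in HRE1-RNAi and from -0.012 to 0.17 between the lines in normoxia. Of all probe sets called in hypoxia, 41.3% were higher in HRE1-RNAi and 40.5% in wild type, against 55.6% and 53.9% after median centring of the arrays. A fit of only the 2 groups compared was not run for the difference of responses, which needs all 4.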
